A study of Rattus norvegicus with 18 samples.

Results

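The genes described here encode the receptors that sense adenosine and ATP outside the cell and the enzymes that break ATP down there. They were taken by symbol: the adenosine receptors Adora1, Adora2a, Adora2b and Adora3, the ATP-gated channels P2rx4 and P2rx7, the nucleotide receptors P2ry1 and P2ry6, and the ectonucleotidases Entpd1 and Entpd2. These are 10 genes of 32899 listed in the retina or RPE/choroid (retinal pigment epithelium and choroid) count tables together. Of the 10, 9 were matched to a row in both count tables. Adora3 was matched by symbol in the authors' normalized retina table alone and is given from there. In the neural retina and in the RPE/choroid, mRNA was sequenced from 3 young, 3 aged and 3 8-AG-treated aged libraries, 18 in all. All rats were female wild-type Fischer 344. Young rats were 4 months old and untreated, aged rats were 24 months old and had drunk water, and treated rats were 24 months old and had received 8-AG at 5 mg/kg/day in drinking water for 8 weeks from 22 months of age. 8-AG is 8-aminoguanine, an inhibitor of purine nucleoside phosphorylase. The labels do not say whether the libraries of a group came from separate rats, so p-values measure only the spread between these libraries. In the RPE/choroid, young libraries 1 and 2 share a label number, marked L and R, as do aged libraries 1 and 2.

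ATP released from stressed or active cells acts on P2X channels and P2Y receptors. Enzymes on the cell surface then remove its phosphates, and CD73, the product of Nt5e, makes adenosine, which acts on 4 receptors. In the retina, adenosine acting at the A1 receptor is known to dampen synaptic release, and P2X7 and P2Y6 are well known on microglia, the resident macrophages, where P2X7 is linked to inflammasome activation and P2Y6 to phagocytosis.

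Total counts per library were 12283425 to 15644317 in the retina and 28573828 to 48203050 in the RPE/choroid. Levels are read counts scaled to library size (CPM), worked out within each tissue, and were not compared between genes or between tissues. RPE65 (Rpe65), the visual cycle isomerase of the RPE, was at 2.16 to 63.7 CPM in the retina libraries and at 26.7 to 611.7 CPM in the RPE/choroid libraries. The listed markers of rods, the photoreceptors of dim light, summed to 639 to 57601 CPM in RPE/choroid, so rod RNA was present in every library of that tissue and differed widely between libraries of a group. The treated retina libraries are labelled total RNA and the other 15 libraries polyA RNA, while the protocol given for all samples describes polyA capture for every retina library. The sources used here do not settle which is right, and a difference in RNA type, if there was one, cannot be told apart from the treatment in the retina.

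In aged retina, P2rx7, P2ry6 and Adora1 rose. P2rx7 and P2ry6 were the members with the largest changes, and the A1 receptor gene changed less, with a smaller standard error. No member fell. These 3 of 9 tested members passed at an adjusted p under 0.05, where 7.29% of the 14588 genes tested were called higher and 14.5% were called in either direction. A change is called here by edgeR's quasi-likelihood test with Benjamini-Hochberg adjustment across the whole table. The median log2 fold change of the 9 members was 0.40, beside 0.0019 over all genes tested. The study's own rule asks for an unadjusted P below 0.05 and a fold above 1.5. It was applied here to the P values of the edgeR fit, so its calls are not the study's own. By it, 3 members were higher (P2rx7, P2ry6 and Entpd1), where 6.45% of all genes were. With a library left out, 2 or 3 members met it.

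P2rx7 encodes a channel that opens at high ATP. Its level was 1.23, 0.828 and 0.743 CPM in the young retina libraries and 3.04, 4.34 and 2.07 CPM in the aged ones, from 16, 11 and 11 reads and 39, 68 and 30 reads. The groups did not overlap. P2rx7 rose by 1.75 on the log2 scale (SE 0.352, 95% interval 0.97 to 2.54, adjusted p = 0.00915 by edgeR). P2rx4, its neighbour on the RefSeq map with no protein-coding gene between them, encodes a channel that opens at lower ATP. Its young libraries were at 10.02, 10.6 and 10.1 CPM and its aged libraries at 9.13, 16.01 and 7.81 CPM. Aged library 2 stood above every young library and the other 2 aged libraries stood below them, and the log2 fold change was 0.10 (95% interval -0.49 to 0.70).

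P2ry6 encodes a receptor for UDP. The young libraries held 0.308, 0.753 and 0.338 CPM, from 4, 10 and 5 reads, and the aged libraries 2.19, 2.87 and 1.24 CPM, from 28, 45 and 18 reads. Every aged library was above every young one. P2ry6 rose by 2.16 on the log2 scale (SE 0.451, 95% interval 1.15 to 3.17, adjusted p = 0.0111). With a minimum of 10 counts behind the filter, it entered the test only through the aged group, and it also passed with no filter. P2ry1, which encodes an ADP receptor, was not called, at 15.6, 19.0 and 15.9 CPM in young and 17.4, 15.6 and 15.6 CPM in aged retina (log2 fold change -0.06, 95% interval -0.30 to 0.18).

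Adora1 was at 64.0, 57.1 and 56.8 CPM in the young retina libraries and at 71.6, 90.2 and 73.2 CPM in the aged ones, without overlap. The rise was 0.40 on the log2 scale (SE 0.0957, 95% interval 0.19 to 0.62, adjusted p = 0.0221). Adora2a, for a receptor that raises cyclic AMP, was at 1.70, 1.88 and 1.89 CPM in young and 2.42, 1.91 and 2.07 CPM in aged libraries. Its groups did not overlap either, although aged library 2 lay just above the highest young library, and the log2 fold change of 0.22 did not pass (95% interval -0.32 to 0.76, adjusted p = 0.596). Adora2b, for the low-affinity receptor, was at 4.39, 3.76 and 3.38 CPM and then 4.37, 5.68 and 5.32 CPM, and its log2 fold change of 0.42 did not pass (95% interval -0.01 to 0.85, adjusted p = 0.181). Adora3, read from the authors' normalized table, was at 0.308, 0.300 and 0.272 CPM in young and 1.01, 1.08 and 0.415 CPM in aged retina, which equals 4, 4 and 4 reads against 13, 17 and 6 reads. All 3 aged libraries were above all 3 young ones, and Adora3 was not tested because no row of the count table could be matched to it here. With 3 libraries a group, an exact permutation test of a single gene cannot go below 0.1.

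Entpd1 encodes CD39, which takes ATP and ADP to AMP. It was at 7.17, 8.06 and 5.41 CPM in young and 10.4, 13.3 and 7.60 CPM in aged retina, so aged library 3 fell within the young range. Its log2 fold change was 0.60 (SE 0.224), and it met the study's rule but not the adjusted threshold (adjusted p = 0.110). Entpd2, for an enzyme that mainly takes ATP to ADP, was at 3.31, 4.37 and 4.66 CPM in young and 4.84, 3.57 and 4.22 CPM in aged libraries (log2 fold change 0.03, 95% interval -0.44 to 0.49). Of all 9 tested members, 4 had groups that did not overlap with aged higher (Adora1, Adora2a, P2rx7 and P2ry6), where 18.1% of all genes did.

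**Figure D1:**
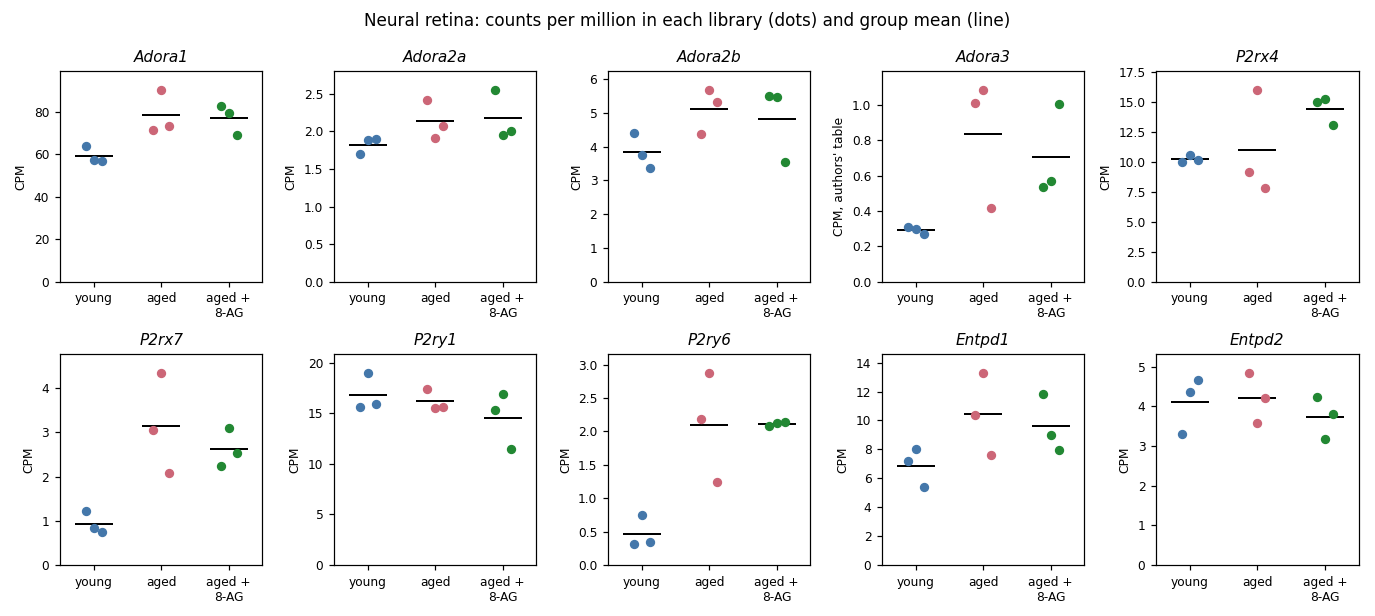
Level of each member in the neural retina, in CPM, with 1 dot per library and a line at the mean of 3 libraries. The panel for Adora3 uses the authors' normalized values. P2rx7 and P2ry6 stand clear of the young libraries in both aged groups, and Adora1 does so over a smaller range.

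Some of these calls crossed the threshold with 1 library left out. P2rx7 passed with any 1 library left out, with log2 fold changes of at least 1.45. P2ry6 was at 1.95 without young library 1 and did not pass (adjusted p = 0.0513). Adora1 did not pass without young library 2 (0.37, adjusted p = 0.0929) or young library 3 (0.37, adjusted p = 0.0788). Entpd1 passed without aged library 3 (0.79, adjusted p = 0.0411), and its log2 fold change was 0.39 without aged library 2 (adjusted p = 0.298) and 0.45 without young library 3 (adjusted p = 0.260), below the fold of the study's rule in both. It also missed the rule without young library 1 or aged library 1, so it met it in 2 of 6 such fits. Without aged library 2, which held the highest Adora1, P2rx4, P2rx7, P2ry6 and Entpd1 of the aged libraries, P2rx7 and P2ry6 still passed, at 1.45 and 1.86 on the log2 scale.

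Markers of microglia moved with these members. Of 15 listed microglial markers, 14 had a row and 11 were tested, 10 of which rose with age. The median log2 fold change of the 11 was 2.03. The 14 with a row summed to 87.3 to 88.9 CPM in young and 199 to 313 CPM in aged libraries. Among the defining markers, Aif1 was at 1.70, 2.48 and 1.76 CPM in young and 7.49, 11.7 and 5.94 CPM in aged retina, and Siglech was at 0 in all young libraries. The aged libraries took the same order in the microglial sum as in P2rx7, P2ry6 and Entpd1, with library 2 highest and library 3 lowest, whereas Adora1 was lowest in aged library 1. In treated retina the microglial sum was 222, 231 and 215 CPM, an order that none of P2rx7, P2ry6 and Entpd1 (11.8, 8.97 and 7.95 CPM) took. Astrocyte markers took the order of the aged microglial sum, with 3 of 4 tested rising and a sum of 280 to 319 CPM in young and 560 to 821 CPM in aged libraries. The sum of 8 T and B cell markers, of which 1 was tested and rose, had the same order, at 4.16 to 4.60 CPM in young and 9.19 to 14.4 CPM in aged libraries. Erythrocyte markers were at 23.7 to 41.8 CPM in young libraries and 77.1, 367.7 and 84.9 CPM in the aged ones, highest in aged library 2, and 0 of 2 tested passed. Lens markers ran from 161 to 6461 CPM in young and 17.3 to 24.0 CPM in aged libraries, and 3 of 11 tested fell. Rod markers were lower with age: 13 of 13 were lower in aged retina and 10 passed, and their sum was 57141 to 62176 CPM in young and 36010 to 40611 CPM in aged libraries. In bulk tissue, fewer cells of a type and less RNA per cell cannot be told apart, and the part of these markers in the results for P2rx7, P2ry6 and Adora1 was not tested.

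**Figure D2:**
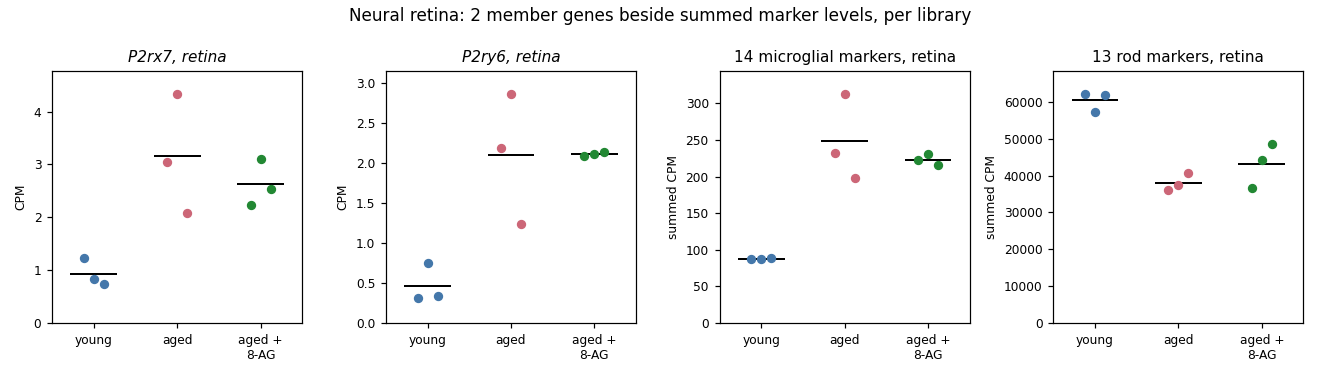
P2rx7 and P2ry6 in CPM beside the summed CPM of 14 microglial and 13 rod markers in the same 9 retina libraries. Dots are libraries and lines are means of 3. The microglial sum was 87.3 to 88.9 in young and 199 to 313 in aged libraries, and the rod sum was lower in every aged and treated library than in any young one.

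The sequences around the start of transcription were read for the members that rose, from RefSeq on the GRCr8 build, 250 bases before the start and 50 after it. RefSeq promoters were matched for 8 of the 10 members. No entry matched Adora2a or P2ry6. They are shown 5′ to 3′ on the gene's strand. Capitals mark GAGGAA, a core bound by PU.1, the transcription factor of myeloid cells.
Adora1 (chr13:48246782-48247081, minus strand): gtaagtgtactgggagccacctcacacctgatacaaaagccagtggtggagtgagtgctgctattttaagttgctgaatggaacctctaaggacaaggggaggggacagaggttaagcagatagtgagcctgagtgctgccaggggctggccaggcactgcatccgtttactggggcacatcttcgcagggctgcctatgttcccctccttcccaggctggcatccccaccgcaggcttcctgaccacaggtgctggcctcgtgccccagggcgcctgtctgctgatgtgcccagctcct
P2rx7 (chr12:39594873-39595172, minus strand): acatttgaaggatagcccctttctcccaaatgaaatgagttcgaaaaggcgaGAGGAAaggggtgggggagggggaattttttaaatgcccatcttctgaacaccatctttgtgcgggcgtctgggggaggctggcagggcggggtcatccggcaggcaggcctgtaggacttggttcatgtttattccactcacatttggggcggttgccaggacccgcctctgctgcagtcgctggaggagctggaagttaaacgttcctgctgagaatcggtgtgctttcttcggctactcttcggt
The P2rx7 window held GAGGAA once, beginning 198 bases before the start, and the Adora1 window did not hold it. Of the 8 members with a window, 6 held GAGGAA on either strand (Adora2b, Adora3, P2rx4, P2rx7, Entpd1 and Entpd2), as did 27.5% of all 27457 windows searched. A second motif, a core of interferon response elements, was searched on both strands in the same windows and was held by 0 of the 8, against 3.77% of all windows. Both motifs were chosen after the expression values were known, no other motif was searched, and a match or its absence describes the letters of the window only.

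The retina genes whose level followed each called member most closely were found by Pearson correlation of log2 CPM over the 9 libraries, among 12080 genes. The 9 libraries share their age groups and their cell content, and the closest of many genes are high by selection. For Adora1 they were B4galt5 (r 0.991), Fdxr (0.986) and Cx3cr1 (0.981), the microglial fractalkine receptor. For P2rx7 they were Cyp2s1 (0.995), RT1-DMb (0.981) and Bin2 (0.981), and for P2ry6 they were Blnk (0.989), Stk3 (0.988) and Mocos (0.984). RT1-DMb is a rat class II antigen presentation gene and Blnk a B cell linker. For P2rx4, which was called in the treated against young comparison below, they were Tes (0.965), Dstn (0.945) and Slc25a15 (0.918).

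After 8-AG treatment, no member passed the test in retina against untreated aged rats. Of 9 members tested, 0 passed by edgeR at an adjusted p under 0.05, 0 by DESeq2, 0 by the study's rule and 0 had an unadjusted P under 0.05, and every pair of groups overlapped. Across all 14631 genes, 0.0205% passed the adjusted threshold, 3.67% had an unadjusted P under 0.05, 0.957% met the study's rule and 8.78% had groups that did not overlap. P2rx7 was at 2.24, 3.10 and 2.54 CPM in treated retina, all within the aged range, with a log2 fold change of -0.27 (95% interval -0.93 to 0.39). P2ry6 was at 2.09, 2.12 and 2.14 CPM, all within the aged range, and its log2 fold change was 0.00 (95% interval -0.71 to 0.72). Adora1 was at 82.7, 79.6 and 69.0 CPM, with a log2 fold change of -0.03 (95% interval -0.27 to 0.21). These intervals bound the treatment difference but do not show that the groups were alike.

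P2rx4 had the largest difference of the 9 in treated against aged retina. The treated libraries were at 14.99, 15.2 and 13.1 CPM, 2 of the 3 aged libraries were below all of them and aged library 2 was above them. The log2 fold change was 0.38 (95% interval -0.20 to 0.97). The other members in this comparison were Adora2a at 0.02, Adora2b at -0.10, P2ry1 at -0.16, Entpd1 at -0.13 and Entpd2 at -0.17 on the log2 scale. The value for P2rx4 moved to 0.77 without aged library 2, where it was the 1 member that met the study's rule, and to 0.19 without aged library 3. Adora3 in the authors' table was at 0.538, 0.569 and 1.002 CPM in treated retina, inside the aged range of 0.415 to 1.08 CPM, from 7, 7 and 15 reads.

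Against young rats, the treated retina gave 4 called members, P2rx7, P2ry6, Adora1 and P2rx4, where 7.78% of 14542 genes were called higher. P2ry6 rose by 2.17 (SE 0.369, adjusted p = 0.00451), P2rx7 by 1.49 (SE 0.297, adjusted p = 0.00993), P2rx4 by 0.49 (SE 0.114, adjusted p = 0.0189) and Adora1 by 0.38 (SE 0.0890, adjusted p = 0.0202) on the log2 scale, in edgeR. The untreated aged against young values of the same genes were 2.16, 1.75, 0.10 and 0.40. The 2 comparisons share the young libraries. Among the marker lists, 13 of 13 tested microglial markers rose in treated against young retina and 8 of 13 rod markers fell. The surface epithelium sum was 1.69 to 4.67 CPM in young and 13.4 to 31.0 CPM in treated libraries, with 2 of 4 tested rising, and the lens sum was 1788 CPM in treated library 1 against 20.1 and 22.5 CPM in the other 2. The part of these markers in the members' values was not tested. P2rx4 did not pass by DESeq2 (adjusted p = 0.0555) or with all 3 groups in one fit (adjusted p = 0.172). P2ry6, which entered this test only through the treated group, passed with any 1 library left out. P2rx7 did not pass without young library 2 (1.41, adjusted p = 0.0511) or treated library 2 (1.35, adjusted p = 0.0530). Adora1 did not pass without young library 2, young library 3 or treated library 2, with log2 fold changes of 0.35 each and adjusted p from 0.0732 to 0.0928. P2rx4 did not pass without any 1 of the 3 young libraries or without treated library 2, with log2 fold changes of 0.45 to 0.52 and adjusted p from 0.0597 to 0.0853.

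**Figure D3:**
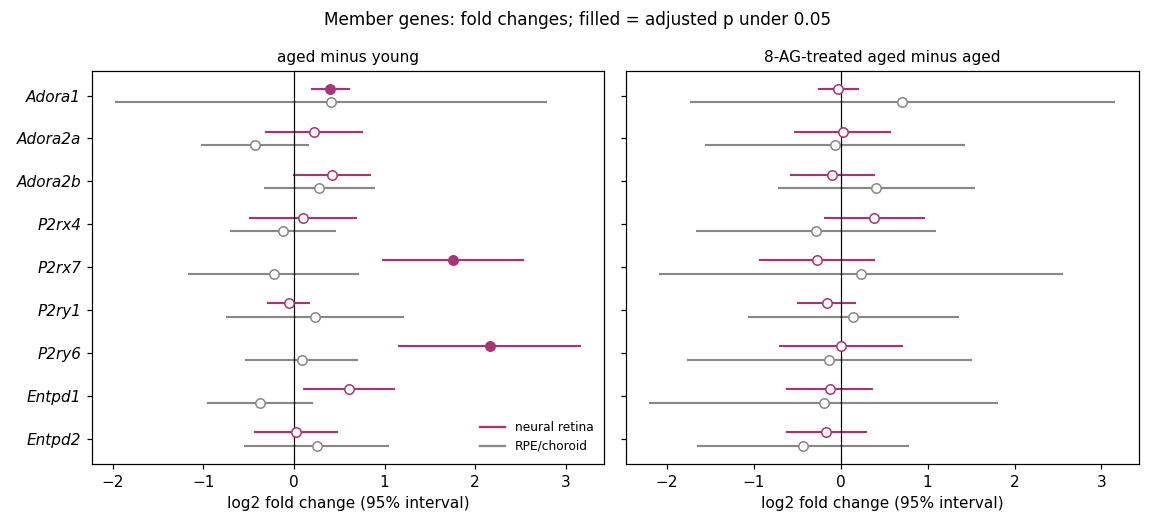
Log2 fold changes of the 9 tested members with 95% intervals, for aged minus young (left) and 8-AG-treated aged minus aged (right), in neural retina and RPE/choroid. Filled points passed an adjusted p under 0.05. Only P2rx7, P2ry6 and Adora1 in retina did so with age, and the RPE/choroid intervals are wider for most genes.

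The RPE/choroid showed no called member in any comparison. Of 9 tested with age, 0 passed in edgeR, 0 in DESeq2, 0 met the study's rule and 0 had an unadjusted P under 0.05, where 0% of 16047 genes passed the adjusted threshold, 2.13% had an unadjusted P under 0.05 and 1.35% met the study's rule. All 9 had overlapping groups, where 7.1% of genes did not overlap. The median log2 fold change of the members was 0.08, beside 0.02 over all genes. P2rx7, which rose in aged retina, was at 1.97, 2.16 and 4.24 CPM in young and 2.42, 2.71 and 2.09 CPM in aged RPE/choroid (log2 fold change -0.22, 95% interval -1.16 to 0.72). P2ry6 was at 16.3, 19.9 and 26.1 CPM and then 16.2, 26.1 and 24.0 CPM (log2 fold change 0.08, 95% interval -0.54 to 0.71). The difference in the aging change between tissues was 1.99 for P2rx7 (95% interval 0.75 to 3.22, adjusted p = 0.206) and 2.095 for P2ry6 (95% interval 0.89 to 3.30, adjusted p = 0.166) on the log2 scale, in edgeR's interaction term, where 0.161% of 16792 genes passed the adjusted threshold. Entpd1 had a difference of 0.99 in the same fit (95% interval 0.18 to 1.79, adjusted p = 0.434). P2rx7, P2ry6 and Entpd1 did not pass after adjustment, although their unadjusted intervals lay above 0, so a difference between the tissues was not shown.

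In the young and aged RPE/choroid groups, Adora1 had the largest ratio of the highest to the lowest library among the 9 members. It was at 21.7, 20.6 and 2.59 CPM in young, 14.002, 5.33 and 40.9 CPM in aged and 52.7, 6.50 and 36.9 CPM in treated libraries. In the young and aged libraries the low values, young library 3 and aged library 2, were also those with the lowest rod sums, 2066 and 639 CPM, beside 18437 and 20462 CPM in young libraries 1 and 2 and 11984 and 17299 CPM in aged libraries 1 and 3. Treated library 3 did not follow the rod sum, with 36.9 CPM of Adora1 at 898 CPM of rod markers. Markers of bipolar cells summed to 438, 310 and 88.7 CPM in young and 468, 78.4 and 775 CPM in aged libraries. In treated libraries they summed to 935, 96.2 and 276 CPM. They took the order of Adora1 in each group, as did cone markers and amacrine and horizontal cell markers. Ganglion cell markers did not, at 224 and 209 CPM in treated libraries 2 and 3. The part of these markers in the Adora1 values was not tested. The log2 fold change with age was 0.41 (95% interval -1.97 to 2.79), and with a rod score as a covariate it was 1.04 (adjusted p = 0.540).

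The other members had smaller ratios in these groups. Adora2a was at 29.6, 25.3 and 42.5 CPM in young and 27.3, 25.3 and 19.8 CPM in aged libraries (log2 fold change -0.43, 95% interval -1.03 to 0.17). Adora2b was at 12.4, 13.2 and 9.30 CPM and then 12.0, 11.8 and 18.8 CPM (0.28, 95% interval -0.33 to 0.89). P2rx4 was at 128, 134 and 204 CPM and then 141, 170 and 119 CPM (-0.12, 95% interval -0.71 to 0.46). None of these 3 genes had groups apart.

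Among the rest, P2ry1 was at 17.98, 18.1 and 12.8 CPM in young and 31.3, 12.0 and 14.4 CPM in aged RPE/choroid (0.24, 95% interval -0.74 to 1.22). Entpd1 was at 9.37, 12.2 and 11.9 CPM and then 7.78, 10.9 and 7.26 CPM (-0.38, 95% interval -0.96 to 0.21). Entpd2 was at 37.0, 55.3 and 54.2 CPM and then 42.0, 86.7 and 46.1 CPM (0.25, 95% interval -0.55 to 1.05). P2ry1 was highest in aged library 1 and Entpd2 in aged library 2, the pair that shares a label number.

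One treated RPE/choroid library stood apart. Treated library 1 had a rod sum of 57601 CPM against 926 and 898 CPM in the other 2, 47895 CPM of striated muscle markers against 2143 and 45.8, 1827 CPM of surface epithelium markers against 11.1 and 267, 699 CPM of endothelial markers against 6946 and 4041, and 711 CPM of microglial and macrophage markers against 2248 and 2183. The part of these markers in the members' values was not tested. It had the lowest P2rx4 (36.8 CPM, beside 176 and 138), P2rx7 (0.311 CPM, beside 5.89 and 2.27), P2ry6 (4.67 CPM, beside 29.8 and 25.9), Entpd1 (1.12 CPM, beside 12.6 and 8.91) Entpd2 (20.7 CPM, beside 64.5 and 43.5) and Adora2a (6.10 CPM, beside 33.7 and 29.1) of the treated libraries. Adora1 was highest in it.

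Against aged RPE/choroid, no member passed, 0 in edgeR, 0 in DESeq2, 0 by the study's rule and 0 with an unadjusted P under 0.05, and all groups overlapped, where 0% of 16257 genes passed, 1.69% had an unadjusted P under 0.05, 1.65% met the rule and 3.96% did not overlap. Adora1 had a log2 fold change of 0.71 (95% interval -1.74 to 3.16), Adora2b of 0.41 and Entpd2 of -0.43, which ran from -0.85 to -0.024 with 1 library left out. P2rx4 was at -0.29, P2ry6 at -0.13, Entpd1 at -0.19 and Adora2a at -0.07. Without treated library 1 these 4 were at 0.13, 0.33, 0.31 and 0.38, so each changed sign without it, and Adora1 was at 0.11 and kept its sign. P2ry6 and Entpd1 also changed sign without aged library 2, as did Adora2a without aged library 1. No member passed without it, either. Treated against young RPE/choroid gave 0 called members in edgeR and DESeq2 and 0 by the rule, where 0% of 16215 genes passed and 1.99% met the rule. With a rod score as a covariate, 4 members met the rule and were lower in treated libraries (Adora2a, P2rx4, P2ry6 and Entpd1), with log2 fold changes of -1.26, -1.06, -0.90 and -1.74, and none passed after adjustment. In that fit 18.7% of all genes met the rule, so the count is not read as a result about the members.

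**Figure D4:**
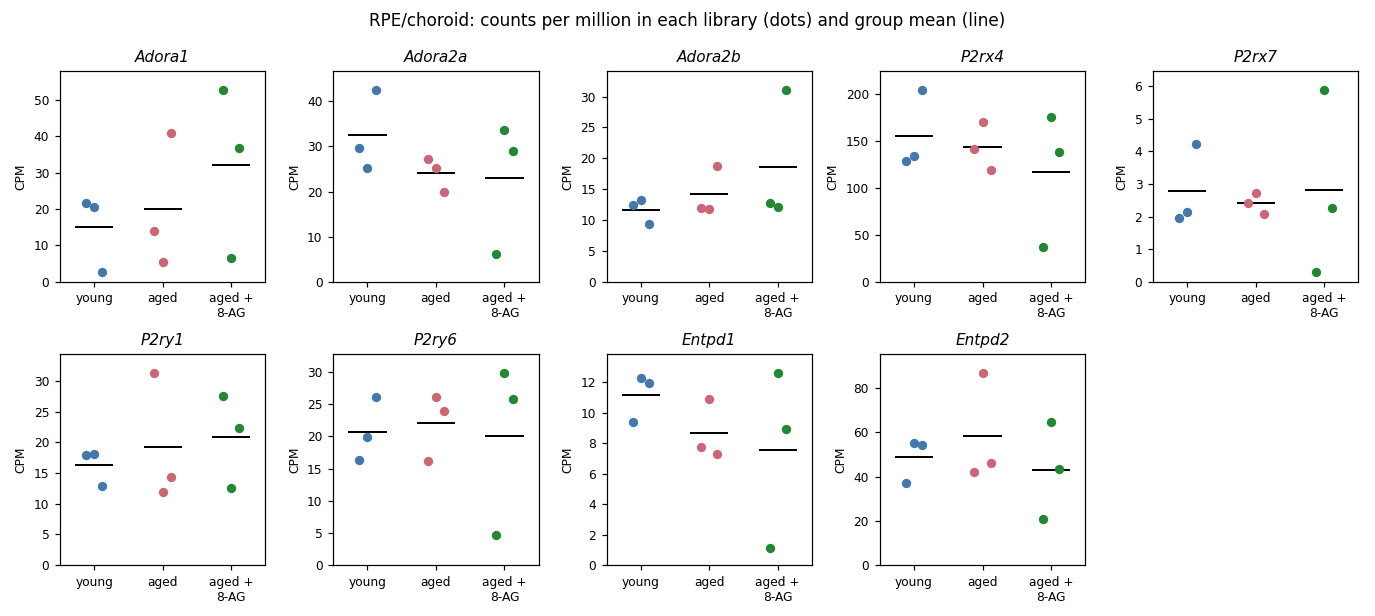
Level of 9 members in the RPE/choroid, in CPM, with 1 dot per library and a line at the mean of 3. Treated library 1 is the lowest treated dot for P2rx4, P2rx7, P2ry6, Entpd1, Entpd2 and Adora2a, and Adora1 ranges from 2.59 to 52.7 CPM.

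Of 32 other genes of purinergic signalling (other P2X and P2Y receptors, other ectonucleotidases, release channels and transporters, and adenosine enzymes), 22 were tested in aged against young retina. The list had 3 genes called higher and 4 called lower, beside 7.29% and 7.26% of all genes, with a median log2 fold change of 0.11 over the 22. Of the 3 called higher, Ada passed the filter on low counts only through the aged group. Nt5e, which makes adenosine from AMP, fell by 1.12 (SE 0.126, adjusted p = 0.00164), from 141, 148 and 161 CPM in young to 76.3, 55.3 and 76.2 CPM in aged libraries. Slc29a1, the equilibrative nucleoside transporter ENT1, fell by 1.002 (SE 0.151, adjusted p = 0.00756), from 109, 128 and 115 to 66.8, 45.4 and 64.0 CPM. Alpl, a phosphatase that acts on nucleotides, fell by 0.86 (adjusted p = 0.00721) and Slc28a2, a concentrative nucleoside transporter, by 0.69 (adjusted p = 0.0357), all on the log2 scale. Every aged library of these 4 genes was below every young one. Rod markers were lower in the same aged libraries, and their part in these 4 falls was not tested.

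Ada, adenosine deaminase, was called higher by 2.08 (SE 0.421, adjusted p = 0.00955), from 0.231, 0.151 and 0.270 CPM to 0.936, 0.957 and 0.968 CPM. These are 3, 2 and 4 reads in young and 12, 15 and 14 reads in aged libraries. Ada thus passed the filter on low counts only through the aged group, where it was high, so its call is not read as support. In treated against young retina Ada was not tested. P2ry12, the microglial ADP receptor, rose by 1.02 (adjusted p = 0.0287), from 2.62, 3.16 and 1.89 to 4.84, 6.70 and 4.01 CPM, and Entpd6 rose by 0.40 (adjusted p = 0.0384). P2rx5 met the study's rule at 0.73 (adjusted p = 0.101). In treated against aged retina 23 genes of this list were tested and 0 passed in edgeR, where 0.0205% of 14631 genes did. Beside 3.67% of all genes, 2 of the 23 had an unadjusted P under 0.05. Those were Alpl, at 90.5, 97.6 and 86.8 CPM in treated libraries, above all aged ones (log2 fold change 0.52, 95% interval 0.23 to 0.81, adjusted p = 0.996), and Entpd3 (0.40, 95% interval 0.07 to 0.74). Nt5e in treated retina was at 76.6, 92.4 and 84.1 CPM, all above the highest aged library, and treated library 1 only just. The log2 fold change of Nt5e was 0.28 (95% interval -0.02 to 0.58). Against young retina, treated retina had lower Nt5e (-0.83), Slc29a1 (-0.85) and Alpl (-0.34) and higher P2ry12 (1.198) and Panx2 (0.25), each at an adjusted p under 0.05. Entpd3 (0.68), P2rx5 (0.81) and Slc28a2 (-0.60) met the rule only.

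In the RPE/choroid, 28 of the 32 were tested with age and 0 passed. Entpd3 met the study's rule with a log2 fold change of 0.66 and Enpp2, autotaxin, with -0.66, both with groups that did not overlap. Of all genes, 1.35% met the rule and 7.1% had groups that did not overlap. Nt5e was at 53.7, 46.1 and 21.2 CPM in young and 34.1, 27.1 and 38.1 CPM in aged libraries (-0.29, 95% interval -1.15 to 0.57). Of 29 genes tested in treated against aged RPE/choroid, 0 passed and none met the rule.

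**Figure D5:**
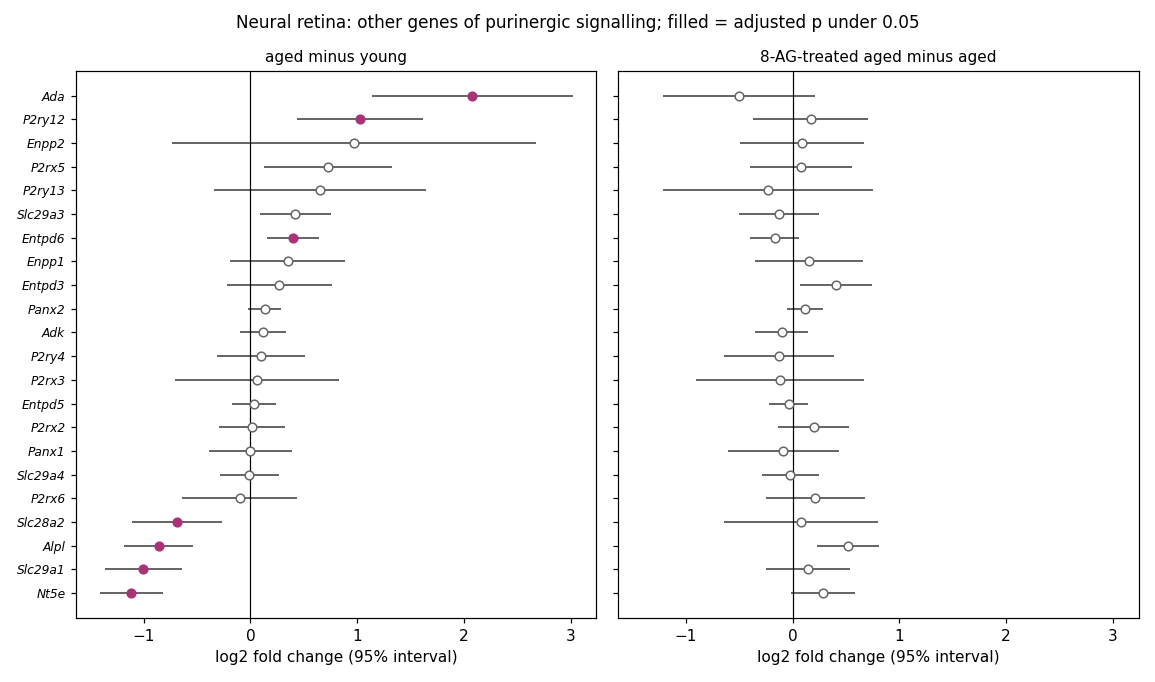
Log2 fold changes with 95% intervals of the 22 other purinergic genes tested in aged against young retina (left), with the same genes in treated against aged retina (right). Filled points passed an adjusted p under 0.05. The left panel has 3 genes called higher and 4 called lower, and the right panel has none.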

How the data were processed

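For retina, the authors deposited expected counts per gene from RSEM, not normalized, of which 11.5% were not whole and all were rounded here. For RPE/choroid, they deposited raw gene counts. Adora3 was read from the TMM-normalized signal (CPM) that the authors deposited for retina, whose other member rows were 0.993 to 1.01 times the CPM computed here. The submitters' processing notes name Bowtie2 2.1.0, RSEM 1.2.15, edgeR and Rnor_6.0. How the RPE/choroid reads were counted is not given in the sources used here. The protocol describes polyA capture for retina, although the treated retina libraries are labelled total RNA, and for RPE/choroid a polyA selection enriched for full-length transcripts, so levels were not tested between tissues. The authors' comparison tables hold fold changes and p-values and served only to pair symbols with identifiers. Adora3 and the markers Pecam1, Prph2 and Itgam could not be matched to an identifier.

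The 6 libraries of a comparison entered 1 fit in edgeR 4.0.16 (R 4.3.3), with filterByExpr, TMM, glmQLFit with robust=TRUE and glmQLFTest, and p-values were adjusted by Benjamini-Hochberg over all genes tested. The interaction used genes in both tables. The study's rule is a fold above 1.5 with an unadjusted P below 0.05. Alternatives were RLE size factors, DESeq2 1.42.0, no filter, a minimum of 10 counts in each library, a joint fit of the 3 groups, the replicate number as a block, robust=FALSE, unrounded counts, each library left out, RPE/choroid libraries with a shared label number summed, a rod score as covariate, and limma 3.58.1 voom for the interaction. Fits were tested on simulated data. Python 3.11.15, pandas 2.3.3 and matplotlib 3.10.9 made tables and figures.

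The named genes are the 10 members, other purinergic genes that passed either rule, P2ry12, Nt5e, the markers Aif1, Cx3cr1 and Rpe65, and the 3 genes closest to each called member (log2 CPM with 0.5 added). A further marker that the rule names is not reported here. Siglech was named after its values were seen. Members and lists were chosen with earlier results of these data known. Intervals are 95%.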

Additional observations from a re-analysis of the deposited data

How the results depend on the processing

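In aged retina, P2rx7 passed an adjusted p of 0.05 under every alternative, with adjusted p from 0.00104 to 0.0431. P2ry6 and Adora1 passed under all alternatives except the left-out libraries named above, save that P2ry6 was not tested with at least 10 counts in every library. The replicate numbers of the labels did not pair the libraries: correlations of their deviations ran from -0.25 to 0.22 in retina and from -0.58 to 0.65 in RPE/choroid. With the replicate number as a block, 4 members passed in aged against young retina, where Entpd1 joined (adjusted p = 0.0314), 4 in treated against young, and 0 in the others, and P2rx7 in RPE/choroid became -0.40 against aged and -0.68 against young. By the study's rule, aged against young retina gave 2 members with the replicate block, without Entpd1, and 2 with at least 10 counts in every library, without P2ry6, and treated against aged retina gave 0 to 1 members with a library left out, treated against young retina gave 1 with at least 10 counts in every library, and treated against young RPE/choroid gave 4 with a rod score, a fit in which 18.7% of all genes met the rule. At an adjusted p under 0.05, treated against young retina gave 1 to 4 with a library left out, the 1 coming without young library 2 or treated library 2. The cause was not tested.

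Other directions turned only for values that had not passed. With the rod score, P2rx7 in RPE/choroid was -0.63 against aged and -1.26 against young. With libraries of a shared label number summed, it was -0.16 against young and Adora2a was 0.015 against aged. With limma voom, the tissue difference was -0.21 for Adora1 with age and 0.26 for P2rx7 with treatment. With 1 library left out, log2 fold changes crossed 0 as follows. In aged against young retina, Entpd2 ran from -0.10 to 0.13, P2rx4 from -0.28 to 0.30 and P2ry1 from -0.11 to 0.032. In treated against aged retina, Adora1 ran from -0.086 to 0.091, Adora2a from -0.10 to 0.12, Adora2b from -0.20 to 0.093, Entpd1 from -0.31 to 0.094, P2rx7 from -0.50 to 0.042 and P2ry6 from -0.27 to 0.31. In aged against young RPE/choroid, Adora1 ran from -0.62 to 0.85, Entpd2 from -0.16 to 0.43, P2rx4 from -0.27 to 0.11, P2rx7 from -0.42 to 0.20, P2ry1 from -0.33 to 0.48 and P2ry6 from -0.069 to 0.27. In treated against aged RPE/choroid, Adora2a ran from -0.45 to 0.38, Adora2b from -0.19 to 0.66, Entpd1 from -0.78 to 0.31, P2rx4 from -0.70 to 0.13, P2rx7 from -0.89 to 0.76, P2ry1 from -0.14 to 0.68 and P2ry6 from -0.53 to 0.33. In treated against young RPE/choroid, Entpd2 ran from -0.59 to 0.15, P2rx4 from -0.82 to 0.017, P2rx7 from -1.09 to 0.54 and P2ry6 from -0.43 to 0.43. The tissue difference with age ran from -0.45 to 1.03 for Adora1, -0.40 to 0.20 for Entpd2, -0.15 to 0.44 for P2rx4 and -0.53 to 0.28 for P2ry1. The tissue difference with treatment ran from -0.36 to 0.48 for Adora2a, -0.72 to 0.093 for Adora2b, -0.44 to 0.66 for Entpd1, -0.14 to 0.73 for Entpd2, -1.04 to 0.62 for P2rx7 and -0.34 to 0.54 for P2ry6. Depth limits P2ry6, P2rx7 and Adora3 most, with 4 to 16 reads in young retina libraries.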
